A study of Mus musculus with 17 samples.

Results

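The 8 genes described here are *Gfap*, the intermediate filament genes *Vim*, *Nes*, and *Synm*, and the reactive genes *Serpina3n*, *Cd44*, *Osmr*, and *C4b*, taken by symbol from the 26556 genes counted in astrocytes of the cortex and thalamus. They were selected on their levels in these same libraries, with the differences between regions, nuclei, and replicates in view, so their levels and fold changes are given as a description and without a test. The study purified astrocytes by fluorescence-activated cell sorting from mice of the FVB strain (FVB/N-Tg background in the study's methods) at P7 and sequenced their RNA, to compare cortical with thalamic astrocytes and the astrocytes of the first-order thalamic nuclei with each other. The cortex gave 4 libraries, and the thalamus gave 13, of which 5 were from the dLG (dorsolateral geniculate, visual), 4 from the VPM (ventral posteromedial, somatosensory), and 4 from the MGv (ventral medial geniculate, auditory). Every library held the pooled cells of 4 brains. All mice, cortical and thalamic, carried the *Gfap::Gfp* transgene, in which a human GFAP promoter drives green fluorescent protein, and the cells were sorted on that fluorescence. The sort therefore used a promoter of one of the genes described, and cells without the fluorescence were not collected. No unsorted sample was used here. The sample numbers fall into series A (cortex c and d, dLG a and b, VPM c and d, and all 4 MGv libraries) and series B (cortex a and b, dLG d and e, VPM a and b), with dLG c alone in a last one, and what a series marks is not stated. Replicate letters name pools within a group, and the SEs and p-values given measure the spread between such pools. In the comparison of thalamus with cortex, the 13 thalamic libraries form a single group. The SEs and p-values of that comparison therefore also hold the differences between the nuclei.

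Intermediate filaments are the third cytoskeletal system beside microtubules and actin, and in astrocytes they are built mainly from GFAP and vimentin, with nestin and synemin joining them in immature and in reactive cells. Astrocytes that respond to injury, inflammation, or disease raise GFAP and vimentin and turn on a wider set of secreted and surface proteins, and cytokines of the interleukin-6 family that signal through gp130, JAK kinases, and STAT3 are among the best known drivers of that response. In the healthy mouse brain GFAP is far from uniform, being abundant in white matter and hippocampus and scarce in many thalamic and cortical astrocytes.

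The start of each gene is shown for *Gfap*, the most variable of the 8 genes, for *Vim*, its filament partner, and for *Osmr*, the receptor. Of the 8 genes, 7 matched a RefSeq promoter, and *C4b* did not. Each sequence below runs 5′ to 3′ on the strand of its gene in GRCm38.p6, from 250 bases before the start to 50 after it. Capitals mark a match to the STAT motif TTCNNNGAA or to the AP-1 motif TGANTCA, which were searched on both strands and do not overlap. The *Gfap* window is chr11:102897151-102897450 on the minus strand, the *Vim* window is chr2:13574061-13574360 on the plus strand, and the *Osmr* window is chr15:6874264-6874563 on the minus strand. These RefSeq starts lie inside the bounds that the Ensembl annotation gives the genes.
*Gfap*: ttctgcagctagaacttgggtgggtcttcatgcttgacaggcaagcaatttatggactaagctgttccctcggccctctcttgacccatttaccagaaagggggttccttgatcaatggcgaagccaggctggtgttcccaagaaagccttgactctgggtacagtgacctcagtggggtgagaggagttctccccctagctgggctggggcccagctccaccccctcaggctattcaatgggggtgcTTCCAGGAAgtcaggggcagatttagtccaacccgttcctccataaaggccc
*Vim*: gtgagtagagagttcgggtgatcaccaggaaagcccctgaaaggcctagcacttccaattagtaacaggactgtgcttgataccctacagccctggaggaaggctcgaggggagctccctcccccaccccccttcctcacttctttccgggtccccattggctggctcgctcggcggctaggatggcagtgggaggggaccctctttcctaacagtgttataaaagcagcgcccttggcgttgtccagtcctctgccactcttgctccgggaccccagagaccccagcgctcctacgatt
*Osmr*: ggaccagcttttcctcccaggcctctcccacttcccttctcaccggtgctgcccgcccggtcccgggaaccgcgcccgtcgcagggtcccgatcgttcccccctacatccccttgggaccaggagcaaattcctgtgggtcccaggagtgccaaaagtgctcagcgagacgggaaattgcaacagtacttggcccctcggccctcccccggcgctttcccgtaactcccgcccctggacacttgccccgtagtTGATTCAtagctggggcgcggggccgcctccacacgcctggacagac
The *Gfap* window held 1 STAT match, whose first base lies at position -2 from the start, and the *Osmr* window held 1 AP-1 match from position 3. No other match was found among the 7 windows. A STAT match occurs in 8.3% and an AP-1 match in 7.8% of the 32851 promoters of the same length, and a match describes the letters and not a bound site.

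The libraries held between 18213687 and 50366363 counts, and 3 counts, taken as the limit of detection, correspond to 0.0596 to 0.165 CPM (counts scaled to library size, with TMM factors). These limits cover counting error only. The library dLG c stood apart, with 17749 genes detected against 21052 to 23365 in the other 16, at a total of 21371571 counts that was not low. The 10 astrocyte markers were detected in each group, and their summed level of 12592 to 13674 CPM in cortical libraries lay above the 6391 to 10201 CPM of thalamic ones. The 8 genes of the oligodendrocyte lineage summed to between 6156 and 11279 CPM over the 17 libraries, the 10 neuronal genes to between 422 and 1552 CPM, the 7 microglial genes to between 35.7 and 155 CPM, and the 7 endothelial genes to between 0.5 and 49.6 CPM. In these bulk libraries, fewer cells that express a gene and less RNA of it per cell cannot be told apart.

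*Gfap* (ENSMUSG00000020932, chromosome 11, 102887336 to 102900912, minus strand) encodes the principal filament protein of mature and reactive astrocytes. Its level was 450.4, 461.7, 537.9, and 528.9 CPM in the 4 cortical libraries. In the dLG it was 1310.02, 98.4, 78.3, 966.1, and 218.8 CPM in replicates a to e, and in the MGv it was 36.1, 601.1, 5525, and 1293 CPM in replicates a to d. In the VPM it was 8.98, 19.3, 11.8, and 9.37 CPM. The 4 cortical libraries lay close together, with a CV of 9.11%, whereas the highest library exceeded the lowest 16.7-fold in the dLG and 153-fold in the MGv. All 4 VPM libraries lay below every other library, and the ranges of the cortex, dLG, and MGv overlapped. The VPM values rest on 188 to 345 counts, well above the limit of detection. From its lowest library, VPM a, to its highest, MGv c, *Gfap* ranged 615-fold, and it was the 5th most abundant gene in MGv c and the 10411th in VPM a. By median, the order was MGv (947.1 CPM), cortex (495.3 CPM), dLG (218.8 CPM), and VPM (10.6 CPM), and only the step from the dLG to the VPM exceeded the ranges of both groups. The cortical median was 46.9 times and the dLG median 20.7 times that of the VPM.

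**Figure D1:**
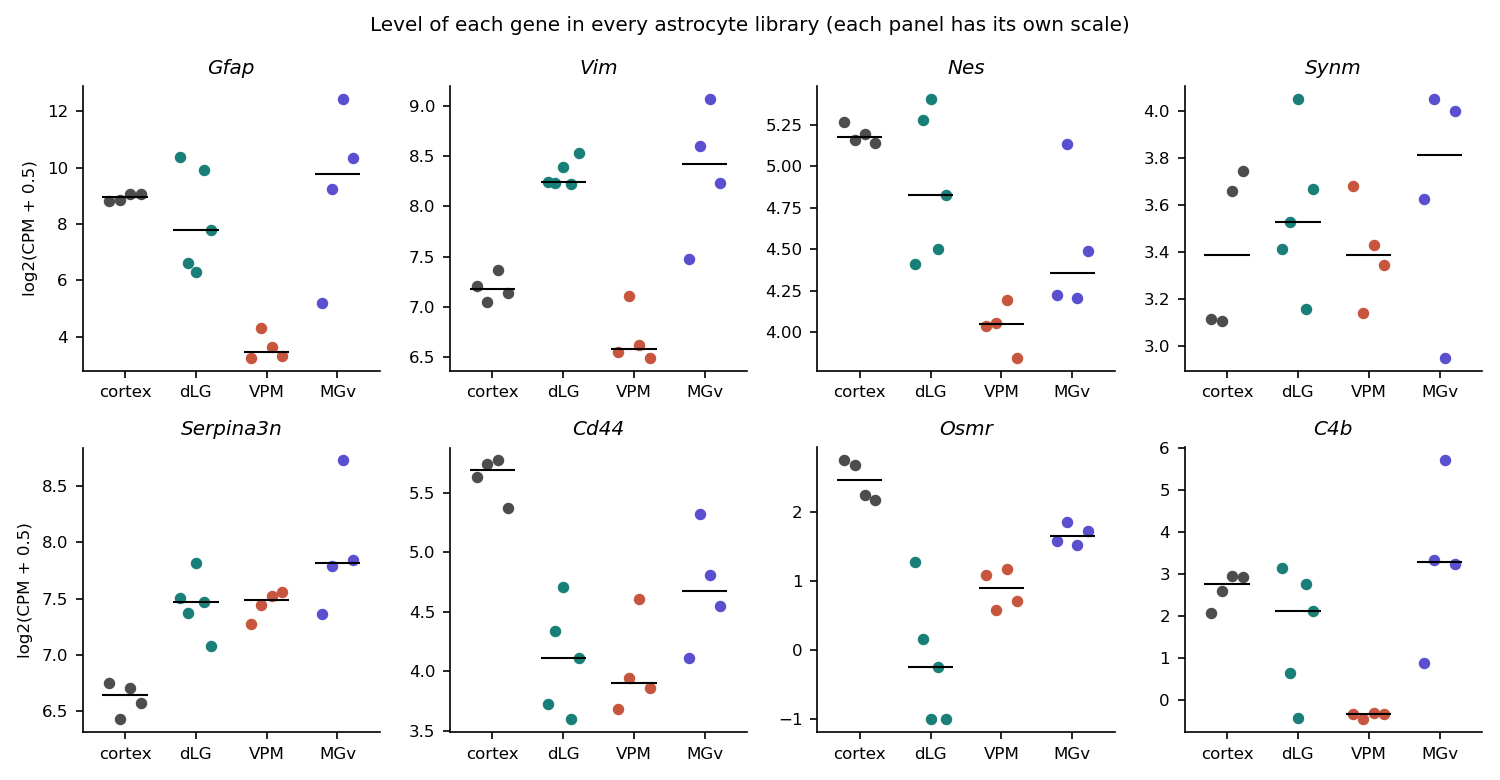
Level of each of the 8 genes in every library, as log2(CPM + 0.5) on the vertical axis of each panel, by group on the horizontal axis. Each point is 1 library of 4 pooled brains, in the order of the replicate letters, and lines mark medians. *Gfap* spans 8.98 to 5525 CPM, with the 4 cortical libraries between 450.4 and 537.9 CPM and the 4 VPM libraries at or below 19.3 CPM.

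*Vim* (ENSMUSG00000026728, chromosome 2, 13573927 to 13582826, plus strand) encodes vimentin, which copolymerizes with GFAP and is also made by many immature and mesenchymal cells. It was measured at 147.0, 131.6, 164.8, and 140.5 CPM in cortical libraries and at 92.8, 137.0, 97.5, and 89.4 CPM in the VPM. It reached 302.1, 300.6, 335.7, 298.8, and 370.1 CPM in the dLG and 177.9, 387.9, 536.4, and 300.9 CPM in the MGv. Each dLG and MGv library lay above each cortical and VPM library. The dLG libraries were as close together for *Vim* (CV of 9.71%) as they were far apart for *Gfap* (CV of 106%). The cortex and the VPM overlapped because VPM b, at 137.0 CPM, stood above the lowest cortical library.

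*Nes* (ENSMUSG00000004891, chromosome 3, 87971078 to 87980451, plus strand) encodes nestin, the filament protein of neural progenitors. Its level was 38.1, 35.2, 36.2, and 34.8 CPM in the cortex, and 20.7, 38.4, 41.9, 22.2, and 27.9 CPM in the dLG. It was 15.9, 16.1, 17.8, and 13.9 CPM in the VPM and 18.2, 34.7, 18.0, and 22.0 CPM in the MGv. The 4 VPM libraries again lay below each of the other 13, by a narrow margin, since VPM c at 17.8 CPM came close to MGv c at 18.0 CPM. Within the dLG the order was the opposite of that of *Gfap*, with *Nes* highest in b and c, where *Gfap* was lowest, and lowest in a and d, where *Gfap* was highest.

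*Synm* (ENSMUSG00000030554, chromosome 7, 67730160 to 67759742, minus strand) encodes synemin, a large filament protein that links filaments to adhesion sites. It ranged from 8.12 to 12.9 CPM in the cortex, from 8.41 to 16.1 CPM in the dLG, from 8.32 to 12.3 CPM in the VPM, and from 7.22 to 16.1 CPM in the MGv. The ranges of the groups overlapped in each pair. Of its exonic length, 6.43% overlaps genes of the opposite strand, and reads of these cannot be told apart where counting ignored strand.

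*Serpina3n* (ENSMUSG00000021091, chromosome 12, 104406729 to 104414329, plus strand) encodes a secreted serine protease inhibitor and is among the most used markers of reactive astrocytes. It was measured at 106.9, 85.5, 104.1, and 94.8 CPM in the cortex. In the dLG it was 181.5, 164.9, 225.1, 176.6, and 134.6 CPM, in the VPM 154.3, 173.6, 184.0, and 188.0 CPM, and in the MGv 164.0, 220.9, 423.7, and 228.8 CPM. Each of the 13 thalamic libraries lay above each cortical library, and the 3 nuclei overlapped with each other. The VPM, where *Gfap* was near 10.6 CPM, thus had a *Serpina3n* median of 178.8 CPM, close to the 176.6 CPM of the dLG. Reads of near-identical copies may be shared with it, and the counts listed for *Serpina3m*, *Serpina3f*, and *Serpina3k* came to 3.48%, 1.43%, and 0.651% of its own over the 17 libraries.

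*Cd44* (ENSMUSG00000005087, chromosome 2, 102811141 to 102901665, minus strand) encodes the surface receptor for hyaluronan. It was measured at 49.1, 53.1, 54.1, and 41.0 CPM in the cortex. Its thalamic values were 12.7, 19.7, 25.6, 11.6, and 16.8 CPM for the dLG, 12.3, 14.9, 23.8, and 14.0 CPM for the VPM, and 16.8, 39.5, 27.5, and 22.9 CPM for the MGv. Each thalamic library lay below each cortical library, the nearest being MGv b at 39.5 CPM against cortex d at 41.0 CPM.

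*Osmr* (ENSMUSG00000022146, chromosome 15, 6813577 to 6874969, minus strand) encodes the receptor subunit that binds oncostatin M together with gp130. It was measured at 6.20, 5.90, 4.26, and 4.01 CPM in cortical libraries and at 2.50, 3.11, 2.38, and 2.81 CPM in the MGv. The VPM had 1.62, 1.00, 1.75, and 1.13 CPM. In the dLG the libraries held 41, 13, 0, 7, and 0 counts, the highest being 1.92 CPM in replicate a, and dLG c and e had no count. The total of dLG c was not low, but it was the library with the fewest genes detected. Without dLG c, the log2FC of *Osmr* was -1.39 in the dLG against the other nuclei, beside -1.71 with it, and -0.06 in the VPM, beside 0.10. The 4 groups fell in the order cortex, MGv, VPM, and dLG, and neither the step from cortex to MGv nor that from MGv to VPM had overlapping ranges, whereas the VPM and dLG overlapped.

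*C4b* (ENSMUSG00000073418, chromosome 17, 34728380 to 34743882, minus strand) encodes complement component C4, which is cleaved in the classical pathway. Its level was 3.70, 5.51, 7.28, and 7.05 CPM in cortical libraries and 8.34, 1.05, 0.236, 6.27, and 3.84 CPM in the dLG. In the MGv it was 1.35, 9.48, 51.6, and 8.98 CPM, and the 4 VPM libraries held 4 to 6 counts each, at 0.223 to 0.300 CPM. The replicate order within the dLG and the MGv resembled that of *Gfap*, with the same lowest library (dLG c and MGv a) and the same highest library (dLG a and MGv c) in each. Without dLG c, which had the fewest genes detected and the lowest *Gfap* and *C4b* of its nucleus, the log2FC of the dLG against the other nuclei was 2.11 for *Gfap*, beside 1.83 with it, and 1.13 for *C4b*, beside 0.83. The near-identical copy *C4a* had 0 to 16 counts per library and 0 to 7 in the VPM, where *C4b* itself had 4 to 6, so that shared reads could matter to its VPM values.

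Compared per kilobase of exon, the scale on which genes can be set against each other, *Gfap* had the highest median of the 8 genes in the cortex (117 CPM per kilobase, against 48.2 for *Serpina3n* and 30.3 for *Vim*) and in the MGv (224.5, against 108.9 and 72.6). In the dLG it came after both, at 51.9 CPM per kilobase against *Serpina3n* at 85.5 and *Vim* at 63.7. In the VPM *Serpina3n* stood at 86.6 and *Vim* at 20.1, while *Gfap*, at 2.51 CPM per kilobase, was level with *Nes* at 2.50 and *Cd44* at 2.13. By these medians the VPM libraries held more *Vim* than *Gfap* RNA per length, and the cortical libraries held less.

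Across the 13 thalamic and 4 cortical libraries, which the study compares to find what distinguishes the astrocytes of the 2 regions, *Serpina3n* was higher in the thalamus by a log2FC of 1.04 (SE 0.22) and *Cd44* lower, with a log2FC of -1.31 (SE 0.24). *Osmr* had a log2FC of -1.78 (SE 0.69), *Vim* of 0.85 (SE 0.40), *Nes* of -0.61 (SE 0.24), and *Synm* of 0.15 (SE 0.22). For *Gfap* (log2FC 0.66, SE 1.29) and *C4b* (0.27, SE 1.10) the error exceeded the difference, since 5 thalamic libraries lay above and 8 below the cortical range for *Gfap*. The sign of both genes turned when the nuclei were weighted equally in a fit of 4 groups (-1.10 for *Gfap* and -1.11 for *C4b*), and also without the library MGv c (-0.32 and -0.77), and that of *C4b* with the number series as a covariate (-0.13). Within series A the log2FC was 1.08 for *Gfap*, 1.15 for *Serpina3n*, -1.09 for *Cd44*, and -1.01 for *Osmr*, and within series B, which holds no MGv library, it was -0.56, 0.75, -1.86, and -3.01. Of the 8 genes, 1 was past an adjusted p of 0.1 in each direction, and 3 had ranges that did not overlap, where the background over the 17856 genes tested was 5.45% called higher, 5.93% called lower, and 4.77% without overlap. Since the genes were chosen with this contrast in view, nothing is read from these counts. Without dLG c, 4 members were past the threshold. The median log2FC was 0.21 over the 8 genes and 0.02 over the genes tested.

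The nuclei were compared as each nucleus against the mean of the other 2 on the log2 scale, to find what distinguishes their astrocytes. In the VPM, *Gfap* had a log2FC of -6.37 (SE 1.26), *C4b* of -4.93 (SE 1.08), *Vim* of -1.72 (SE 0.24), and *Nes* of -0.77 (SE 0.23). The other members of the group had smaller differences there, between -0.44 for *Cd44* and 0.10 for *Osmr*. In the MGv, *Gfap* had a log2FC of 4.55 (SE 0.87), *C4b* of 4.10 (SE 0.77), *Osmr* of 1.61 (SE 0.77), *Vim* of 0.96 (SE 0.21), *Cd44* of 0.69 (SE 0.25), and *Serpina3n* of 0.58 (SE 0.19). In the dLG, *Gfap* had a log2FC of 1.83 (SE 0.82) although its mean was lower than in the other nuclei together (534.3 against 938.1 CPM), because the contrast averages the VPM and MGv as logarithms. It was 1.16 without dLG a and 2.60 without MGv c, and *C4b* in that nucleus had 0.83 (SE 0.76), 0.35, and 1.55 in the same order. *Vim* had 0.76 (SE 0.20), *Nes* 0.66 (SE 0.21), and *Osmr* -1.71 (SE 0.83) in that nucleus.

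The values of the MGv depended on replicate c. Without it, the log2FC of the MGv was 2.99 for *Gfap*, 2.64 for *C4b*, 0.66 for *Vim*, and 0.22 for *Serpina3n*, and the number of members past the threshold went from 3 to 0. That of the VPM remained at -5.58 for *Gfap* and -1.56 for *Vim*. *Osmr* depended on dLG a, without which its log2FC was -2.96 in the dLG and 2.22 in the MGv, and was 0.92 in the MGv with the number series as a covariate. In the VPM, 4 members were past the threshold and lower, and 3 of the members lay below every dLG and MGv library, beside a background of 9.78% of 17319 genes called lower, 7.07% called higher, and 6.66% without overlap. In the MGv, 3 were past it and higher, beside 1.57% called higher and 0.756% called lower, and in the dLG none was (2 with DESeq2 or without dLG d, and 1 without MGv b, MGv c, or VPM b), beside 0.941% higher and 0.214% lower. These comparisons share libraries and were in view when the genes were chosen, so the counts are a description. The medians of the log2FC over the 8 genes were -0.60 in the VPM, 0.83 in the MGv, and 0.36 in the dLG, against -0.02, 0.02, and -0.01 over the genes tested.

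**Figure D2:**
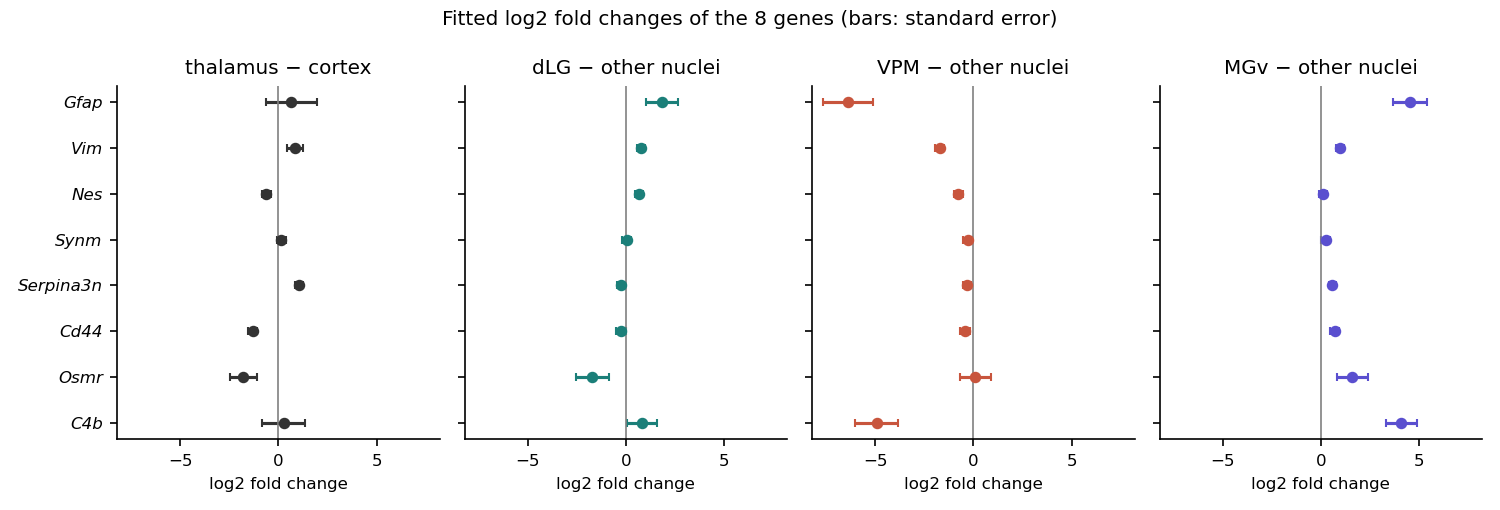
Fitted log2 fold change (horizontal axis) of the 8 genes (vertical axis) for the thalamus against the cortex and for each nucleus against the mean of the other 2. Bars are standard errors. The VPM values of *Gfap* (-6.37) and *C4b* (-4.93) and their MGv values (4.55 and 4.10) lie farthest from 0, and the thalamus against cortex value of both is within its error.

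The spread between libraries of a group was among the values that chose the genes and is given as a description. On the scale of log2(CPM + 0.5), the SD of *Gfap* within groups was 1.81, against a median of 0.36 over the 17856 genes tested, and 5 of these genes had a larger one. For *C4b* it was 1.28, with 26 genes above it. *Osmr* had an SD of 0.56, with 21.8% of genes above it, and the other members had one of 0.33 to 0.41. The SD of *Gfap* was 0.13 in the cortex, 0.49 in the VPM, 1.86 in the dLG, and 3.04 in the MGv, so that the spread was that of the dLG and MGv.

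Over the 17 libraries, *Gfap* and *C4b* had a Pearson r of 0.95 and a Spearman rho of 0.92, and with the mean of each group removed an r of 0.93 and a rho of 0.69. Without VPM a and d, the 2 libraries farthest from the median of *Gfap*, r was 0.94. The likeness of *C4b* to *Gfap* was thus seen between groups and within the cortex, dLG, and MGv. It was not seen within the VPM, where *C4b* had 4 to 6 counts per library. There replicate b had the highest *Gfap* (19.3 CPM) and the lowest *C4b* (0.223 CPM). No coefficient was taken without MGv c, the highest library for both genes. For *Gfap* and *Vim* r was 0.70 over all libraries and 0.56 without VPM a and d, with an r of 0.67 and a rho of 0.33 once group means were removed. *Gfap* and *Serpina3n* had an r of 0.13, the 4 cortical libraries having a high *Gfap* and the lowest *Serpina3n*, and with group means removed an r of 0.59 and a rho of 0.35. For *Gfap* and *Synm* r was -0.09, and -0.45 with group means removed. *Nes* and *Cd44* had an r of 0.70, and 0.81 with group means removed. These coefficients describe 17 points that share library depth and scaling, and no p is attached to them.

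**Figure D3:**
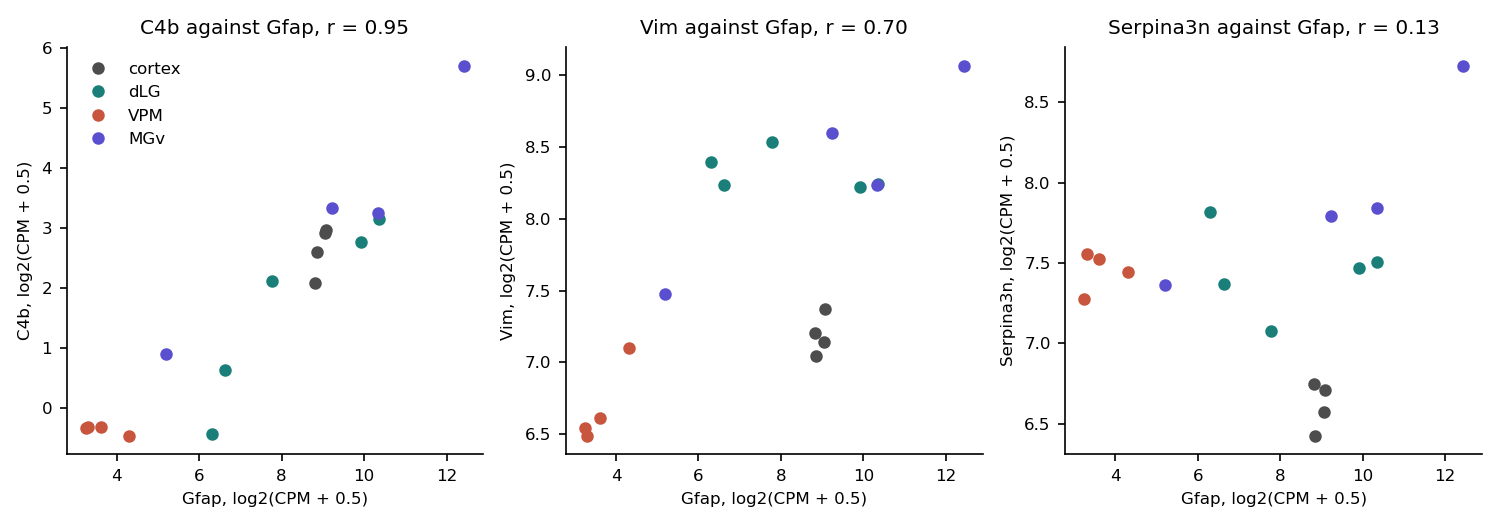
Levels of *C4b*, *Vim*, and *Serpina3n* (vertical axes) against that of *Gfap* (horizontal axes), all as log2(CPM + 0.5), with 1 point per library coloured by group. The points of *C4b* fall along a line over the groups (r = 0.95), those of *Vim* split between the cortex and the dLG and MGv (r = 0.70), and those of *Serpina3n* show the cortex low at a high *Gfap* (r = 0.13).

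Among 11659 genes with a mean of at least 5 CPM, and with the 8 members themselves left out, those most like *Gfap* over the 17 libraries were *Fbxo2* (r = 0.94), *Fam84a* (0.93), *Mamdc2* (0.91), *Tnc* (0.90), and *A2m* (0.89). *Fbxo2* encodes a ubiquitin ligase subunit that binds glycoproteins, *Tnc* the matrix protein tenascin C, and *A2m* the protease inhibitor alpha-2-macroglobulin. Their range was smaller than that of *Gfap*, *Fbxo2* going from 14.6 to 187 CPM and *A2m* from 4.83 to 101 CPM. *Fbxo2* (0.91) and *A2m* (0.91) were also the genes outside the 8 most like *C4b*. For the other members the leading genes were *Rxrg* and *Renbp* for *Vim* (both 0.95), *Ttyh3* (0.92) and *Baiap2* (0.90) for *Nes*, *Rapgefl1* (0.86) and *Disp2* (0.85) for *Synm*, *Serpina3m* (0.96) and *Gpr137b* (0.94) for *Serpina3n*, *Rnf215* (0.92) and *Slc7a2* (0.91) for *Cd44*, and *Scube1* (0.94) and *Cnih3* (0.91) for *Osmr*. Of these, *Serpina3m* may take reads of *Serpina3n*.

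Markers of other cells and states moved with some of these values. The summed level of 9 immediate early and stress genes, among them *Fos*, *Egr1*, and the heat shock gene *Hspa1a*, was 811 to 2992 CPM in the VPM, 3089 to 4044 CPM in the dLG, and 4895 to 6734 CPM in the MGv, and 7 of the 9 were called lower in the VPM and 5 higher in the MGv. In MGv a to d the immediate early sum was 4895, 5045, 6734, and 5091 CPM, the same order of libraries as for *Gfap*. In dLG a to e it was 4044, 3821, 3617, 3836, and 3089 CPM, and in VPM a to d 1762, 2992, 811, and 1223 CPM. In the dLG and the VPM the full order of libraries differed from that of *Gfap*. In the cortex, library a had 4359 CPM against 973 to 1726 CPM in the others, while its *Gfap*, at 450.4 CPM, was the lowest of the 4. The microglial sum in dLG a to e was 155, 40.9, 55.6, 110.0, and 67.5 CPM, so that the 2 dLG libraries with the highest *Gfap* also had the highest microglial sum. In MGv a to d it was 96.8, 35.7, 86.1, and 80.1 CPM, highest where *Gfap* was lowest. The neuronal sum in MGv a to d was 1552, 477, 435, and 1314 CPM. In the VPM, 6 of the 7 microglial genes were called lower, although their sum, 38.8 to 53.1 CPM, overlapped that of the cortex, 45.5 to 55.4 CPM. Of 7 progenitor and cycling genes, 3 were called lower in the VPM, 1 higher in the MGv, and 3 higher in the thalamus. Their sum was 5922, 9706, 6032, and 5759 CPM in VPM a to d. Of the 8 oligodendrocyte lineage genes, 3 were called higher and 2 lower in the VPM. Their sum there was 11279, 6961, 9683, and 9321 CPM in replicates a to d, beside an astrocyte sum of 6873, 9246, 9433, and 8560 CPM. The lineage sum was 6668 to 8087 CPM in the cortex, where the astrocyte sum was 12592 to 13674 CPM. It was 7309 to 9001 CPM in the dLG and 6156 to 8017 CPM in the MGv. Over all genes tested, 7.07% were higher and 9.78% lower in the VPM. Between the regions, the 7 mural genes summed to 38.4 to 65.0 CPM in cortical libraries against 2.2 to 36.8 CPM in thalamic ones, with 1 of the 6 tested called lower. The 6 ependymal genes summed to 7.3 to 90.9 CPM against 3.2 to 13.9 CPM, with 2 of the 3 tested called lower, and *Ccdc153*, *Tmem212*, and *Pifo* had at most 3 counts in each dLG and VPM library. As a difference between regions, both sums went the way of *Cd44* and *Osmr* and, among the listed genes below, *Ptx3* and *Tm4sf1*. In cortex a to d the ependymal sum was 7.3, 24.7, 38.5, and 90.9 CPM, and the mural sum was 38.4, 42.6, 65.0, and 64.6 CPM. *Cd44* was at 49.1, 53.1, 54.1, and 41.0 CPM over these libraries, and *Osmr* fell from 6.20 to 4.01 CPM. *Tm4sf1* rose from 1.04 CPM in a to 35.4 CPM in d, and *Ptx3* was 29.6 CPM in a and 41.8 CPM in d. The part of these cells and states in the values of the genes named was not tested.

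**Figure D4:**
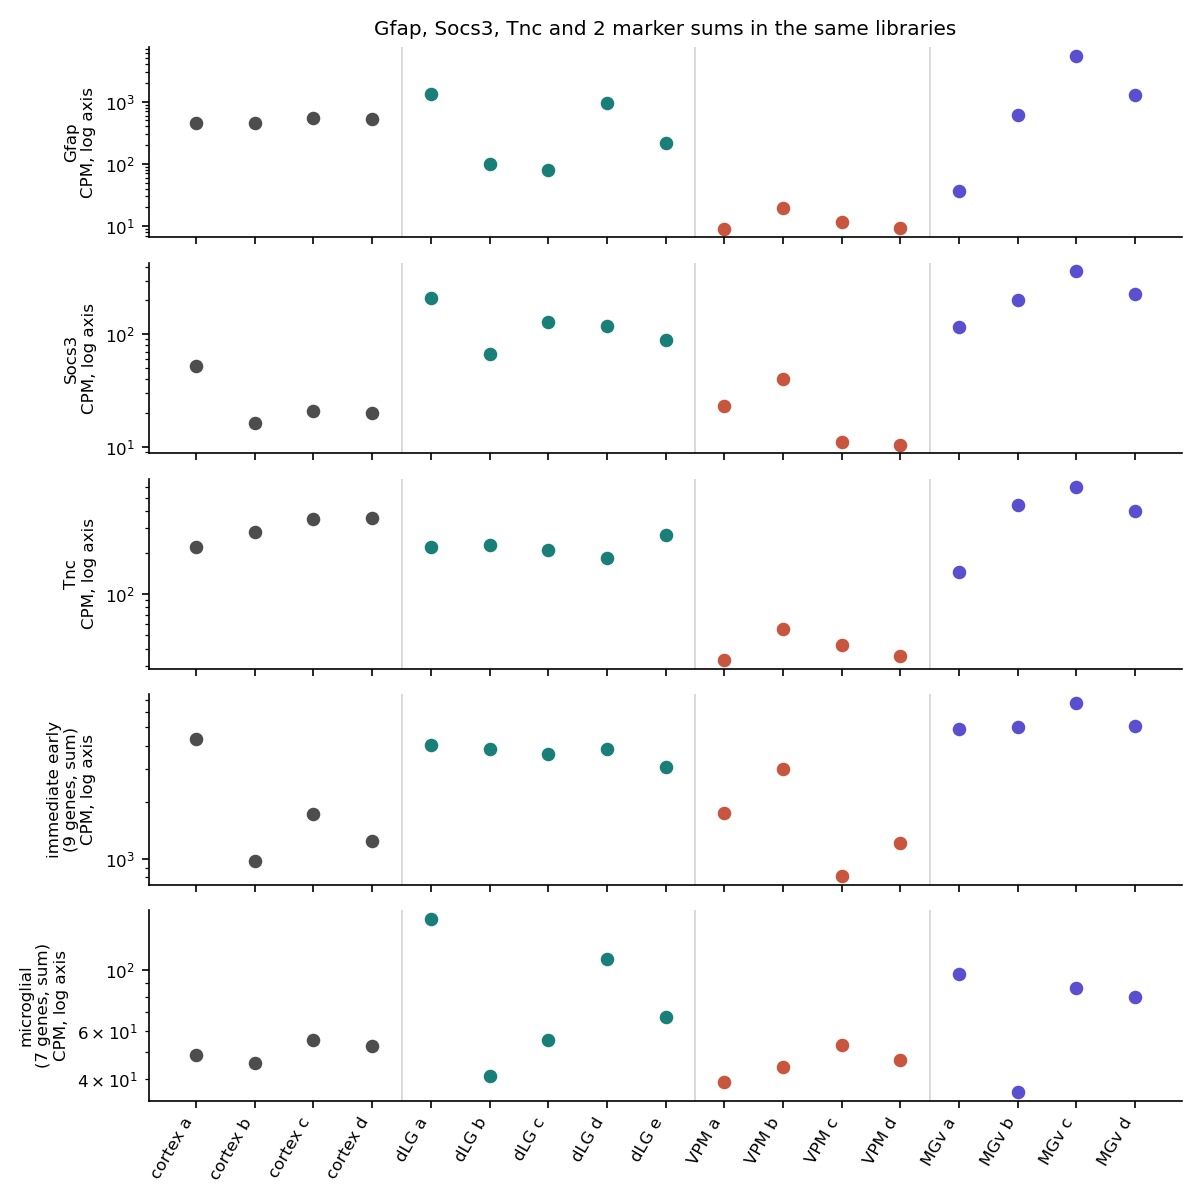
Levels of *Gfap*, *Socs3*, and *Tnc*, and summed levels of 9 immediate early and 7 microglial genes, in CPM on log axes (vertical), for each of the 17 libraries (horizontal), coloured by group. The VPM libraries are low in *Gfap*, *Socs3*, and *Tnc*, and within the MGv *Gfap* runs from 36.1 to 5525 CPM while the immediate early sum runs from 4895 to 6734 CPM.

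Genes that act with the 8 members were taken from lists, with the members left out, and tested with the quasi-likelihood test of edgeR and Benjamini-Hochberg adjustment over all genes. The lists were chosen with earlier results of these data known, so their p-values and counts are not independent of that choice. Of 112 listed genes, 88 were tested between the regions, 14 of them higher and 8 lower in the thalamus, where 5.45% and 5.93% of all genes tested were. Each nucleus was again set against the mean of the other 2 on the log2 scale, so a call can rest partly on the level of another nucleus. Of 85 tested among the nuclei, 7 were higher and 19 lower in the VPM, 7 higher and 2 lower in the MGv, and 4 higher and 0 lower in the dLG. Over all genes tested these shares were 7.07% and 9.78% in the VPM, 1.57% and 0.756% in the MGv, and 0.941% and 0.214% in the dLG, and the counts of each list that follow stand beside the same shares. The number called depended on single libraries, being 14 between regions without cortex b or without cortex c, 4 in the MGv without MGv c, 7 in the dLG without dLG d, and 11, 9, and 12 in the VPM without VPM a, c, and d. The median log2FC of the listed genes was 0.18 between regions, -0.48 in the VPM, 0.23 in the MGv, and 0.18 in the dLG, against 0.02, -0.02, 0.02, and -0.01 over all genes tested.

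Of the 14 other intermediate filament genes and filament linkers tested, 4 were higher and none lower in the thalamus. All 4 encode filaments best known from neurons. *Nefh* averaged 28.3 ± 24.8 CPM over thalamic libraries (SD, n = 13) against 1.39 ± 1.04 CPM over cortical ones (n = 4; log2FC 4.39, edgeR adjusted p = 0.00255). *Nefm* (log2FC 2.29, edgeR adjusted p = 0.00346), *Nefl* (1.96, edgeR adjusted p = 0.00629), and *Ina* (0.98, edgeR adjusted p = 0.00606) went the same way. *Nefl* and *Nefm* overlap each other on opposite strands (32.8% and 19.2% of their exonic length) and *Ina* overlaps *Nt5c2* (14.1%). Within series A the log2FC was 4.01 for *Nefh*, 2.01 for *Nefm*, 1.78 for *Nefl*, and 1.00 for *Ina*, none past the threshold there, and within series B it was 5.09, 2.59, 2.12, and 0.90, the first 3 past it. Of the 10 neuronal markers, 1 was higher and 1 lower in the thalamus, with sums of 779 to 1037 CPM against 422 to 1552 CPM, and their part in the neurofilament values was not tested. In the VPM, 3 of the 14 were higher and 3 lower, and in the MGv 2 were higher and 1 lower. *Plec*, encoding plectin, which ties intermediate filaments to actin and to the membrane, was at 10.8 ± 2.03 CPM in the VPM (n = 4), 59.2 ± 17.5 CPM in the dLG (n = 5), and 86.2 ± 44.4 CPM in the MGv (n = 4). It was lower in the VPM (log2FC -2.76, edgeR adjusted p = 7.6e-04) and higher in the MGv (1.79, edgeR adjusted p = 0.00456). MGv a, at 25.7 CPM, lay below each dLG library (43.8 to 89.1 CPM). *Macf1*, a linker of microtubules and actin, was lower in the VPM (-1.04, edgeR adjusted p = 0.00864) and higher in the MGv (0.80, edgeR adjusted p = 0.0465), the latter ended without MGv b, MGv c, VPM a, VPM c, or VPM d and with the number series as a covariate (adjusted p = 0.17). *Nefm* was lower in the MGv (35.1 ± 19.5 against 99.9 ± 33.4 CPM, edgeR adjusted p = 0.0427, and 0.165 without MGv c), and *Lmnb1*, a lamin, was higher in the VPM (1.01, edgeR adjusted p = 0.0547).

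The lists of reactive genes moved in both directions. Of the general list, 2 of 10 tested were higher in the thalamus, *Hspb1*, a small heat shock protein (3.25 ± 2.67 against 0.135 ± 0.168 CPM, log2FC 4.49, edgeR adjusted p = 0.00384), and *Cp*, ceruloplasmin (log2FC 0.66, edgeR adjusted p = 0.0264). *Tnc* was at 41.7 ± 10.3 CPM in the VPM, 221 ± 31.4 CPM in the dLG, and 398 ± 189 CPM in the MGv. It was lower in the VPM (log2FC -2.86, edgeR adjusted p = 1.6e-04) and higher in the MGv (2.07, edgeR adjusted p = 3.6e-04, and 0.00224 without MGv c). MGv a, at 145 CPM, lay below each dLG library (183 to 269 CPM). In the dLG, *Aspg* (31.4 ± 6.93 CPM against 7.29 ± 4.13 CPM in the other nuclei), *Hspb1*, and *S1pr3*, a sphingosine 1-phosphate receptor, were higher, with a log2FC of 2.11, 1.98, and 1.87 and edgeR adjusted p of 0.00915, 0.0156, and 0.00595. *Sphk1*, the kinase that makes sphingosine 1-phosphate, was higher in the dLG too (1.66, edgeR adjusted p = 0.0174) and lower in the VPM (-1.53, edgeR adjusted p = 0.0191). Its range was 2.00 to 3.46 CPM in the VPM, 2.50 to 8.89 CPM in the MGv, and 7.42 to 15.2 CPM in the dLG. Of 9 genes known from ischemia, 1 was higher and 2 lower in the thalamus, and 5 were lower in the VPM. *Ptx3*, a secreted pentraxin, fell from 39.5 ± 7.81 CPM in cortical libraries to 2.79 ± 1.82 CPM in thalamic ones (log2FC -3.82, edgeR adjusted p = 8.0e-07), with -3.85 within series A and -3.89 within series B. *Tm4sf1* was lower too (-3.95, edgeR adjusted p = 0.00115, and 0.418 within series B), and *Sphk1* higher (3.82, edgeR adjusted p = 0.00318, and 0.115 and 0.104 within the series). Of 12 genes known from inflammation, none was higher and 2 lower in the thalamus, and 2 were higher and 2 lower in the VPM. *Gbp3*, an interferon-induced GTPase, was lower in the thalamus (-1.90, edgeR adjusted p = 0.0151), as was *Amigo2* (-0.67, edgeR adjusted p = 0.0308). *Gbp2*, a close relative, had 0, 0, 0, and 1 count in the VPM, and 0, 32, 237, and 85 counts in MGv a to d, so that its lowest and highest MGv libraries were those of *Gfap* (MGv edgeR adjusted p = 0.0607, 0.279 without MGv c, and 0.232 with the number series as a covariate). *Ggta1* was lower (-3.57, edgeR adjusted p = 0.0564) and *Fbln5*, which encodes fibulin 5, higher in the VPM (1.42, edgeR adjusted p = 0.0183). *Cd14*, a coreceptor for lipopolysaccharide that microglia also make, was lower in the VPM (log2FC -4.02, edgeR adjusted p = 0.0066) and higher in the MGv (2.46, edgeR adjusted p = 0.0383, 0.201 without MGv c, and 0.111 with the number series as a covariate), and *Emp1* was lower in the VPM (-0.62, edgeR adjusted p = 0.0356). *Lcn2*, another widely used reactive gene, had no entry among the 26556 genes counted and could not be analysed.

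Of the 8 genes listed as ligands that signal through gp130, 4 passed the filter on low counts. *Osm*, the ligand of *Osmr*, had 0 to 22 counts per library. Of the 13 receptors and signalling genes tested between regions, *Socs3* was called, higher in the thalamus at 123 ± 103 CPM against 27.3 ± 16.9 CPM (log2FC 2.17, edgeR adjusted p = 0.0964, ended without any 1 of 12 libraries). For *Il6st*, which encodes gp130, the values were 72.0 ± 26.8 against 57.7 ± 14.6 CPM (log2FC 0.32, edgeR adjusted p = 0.512). Among the nuclei, *Socs3*, the feedback inhibitor that STAT3 induces, was at 23.2, 39.6, 10.9, and 10.4 CPM in VPM a to d, 209, 66.8, 127, 119, and 89.3 CPM in dLG a to e, and 116, 200.4, 362, and 229 CPM in MGv a to d. Each VPM library lay below each dLG and MGv library, as with *Gfap*, and MGv a and c were again the lowest and the highest of their nucleus. The log2FC was -3.02 in the VPM (edgeR adjusted p = 0.002) and 2.18 in the MGv (edgeR adjusted p = 0.00456, and 0.0313 without MGv c). The cortex departed from this, with a *Gfap* of 450.4 to 537.9 CPM beside a *Socs3* of 16.1 to 52.5 CPM. *Stat3* itself was at 148 ± 10.1 CPM in the VPM against 197 ± 21.2 CPM in the other nuclei (log2FC -0.45, edgeR adjusted p = 0.0215), and *Socs1*, a relative of *Socs3*, was lower there as well (-0.68, edgeR adjusted p = 0.0944, ended without any 1 of 11 libraries).

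Of the 13 complement genes tested, 3 were higher in the thalamus (*C1qc*, *Cd59a*, and *Itgam*) and 4 lower in the VPM. The first of these calls ended without any 1 of 13 libraries. *C1qc*, a chain of C1q made mainly by microglia, was at 1.24 ± 0.898 CPM in the VPM and 7.03 ± 3.46 CPM in the other nuclei (log2FC -2.47, edgeR adjusted p = 0.0149), and *C1qa*, *C1qb*, and *Itgam* were the other 3. *Itgam*, of whose exonic length 68.7% overlaps another annotated gene, had 0 to 1 count in the cortical libraries and 0 to 32 in the thalamic ones. Their movement in the VPM went with that of the microglial markers given above, one of which is *C1qa*, and the part of microglia was not tested. *Cd59a*, an inhibitor of the membrane attack complex, was higher in the thalamus (log2FC 1.39, edgeR adjusted p = 0.0727, ended without any 1 of 3 cortical libraries).

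Of the 10 genes of *Cd44* ligands and partners tested between regions, 3 were lower in the thalamus, the direction of *Cd44*, and none higher. *Ezr*, encoding ezrin, which links CD44 to actin, averaged 94.9 ± 20.7 CPM against 454 ± 43.2 CPM in cortical libraries (log2FC -2.26, edgeR adjusted p = 2.2e-09), with -2.25 within series A and -2.31 within series B. *Has2*, a hyaluronan synthase, averaged 12.5 ± 5.82 against 26.6 ± 4.97 CPM (log2FC -1.09, edgeR adjusted p = 0.0293), and *Hyal1*, a hyaluronidase of which 51.9% overlaps other genes, had a log2FC of -0.53 (edgeR adjusted p = 0.0417). Among the nuclei, *Has2* was higher in the MGv (1.14, edgeR adjusted p = 0.0185) and lower in the VPM (-0.90, edgeR adjusted p = 0.0364). It ranged from 4.78 to 11.8 CPM in the VPM, from 8.27 to 12.8 CPM in the dLG, and from 13.9 to 22.8 CPM in the MGv. In the VPM *Hmmr*, another hyaluronan receptor, and *Rdx*, encoding radixin, were higher (0.47 and 0.28, edgeR adjusted p = 0.0797 and 0.0999). With the number series as a covariate these were 0.11 and 0.187, and the calls ended without any 1 of 6 and of 10 libraries. Of the copies of *Serpina3n*, *Serpina3f* (3.04 ± 1.08 against 0.997 ± 0.246 CPM), *Serpina3m* (log2FC 1.18), and *Serpina3k* (1.33) were called higher in the thalamus, the direction of *Serpina3n*, with edgeR adjusted p of 0.006, 0.026, and 0.0611, and shared reads were not tested.

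**Figure D5:**
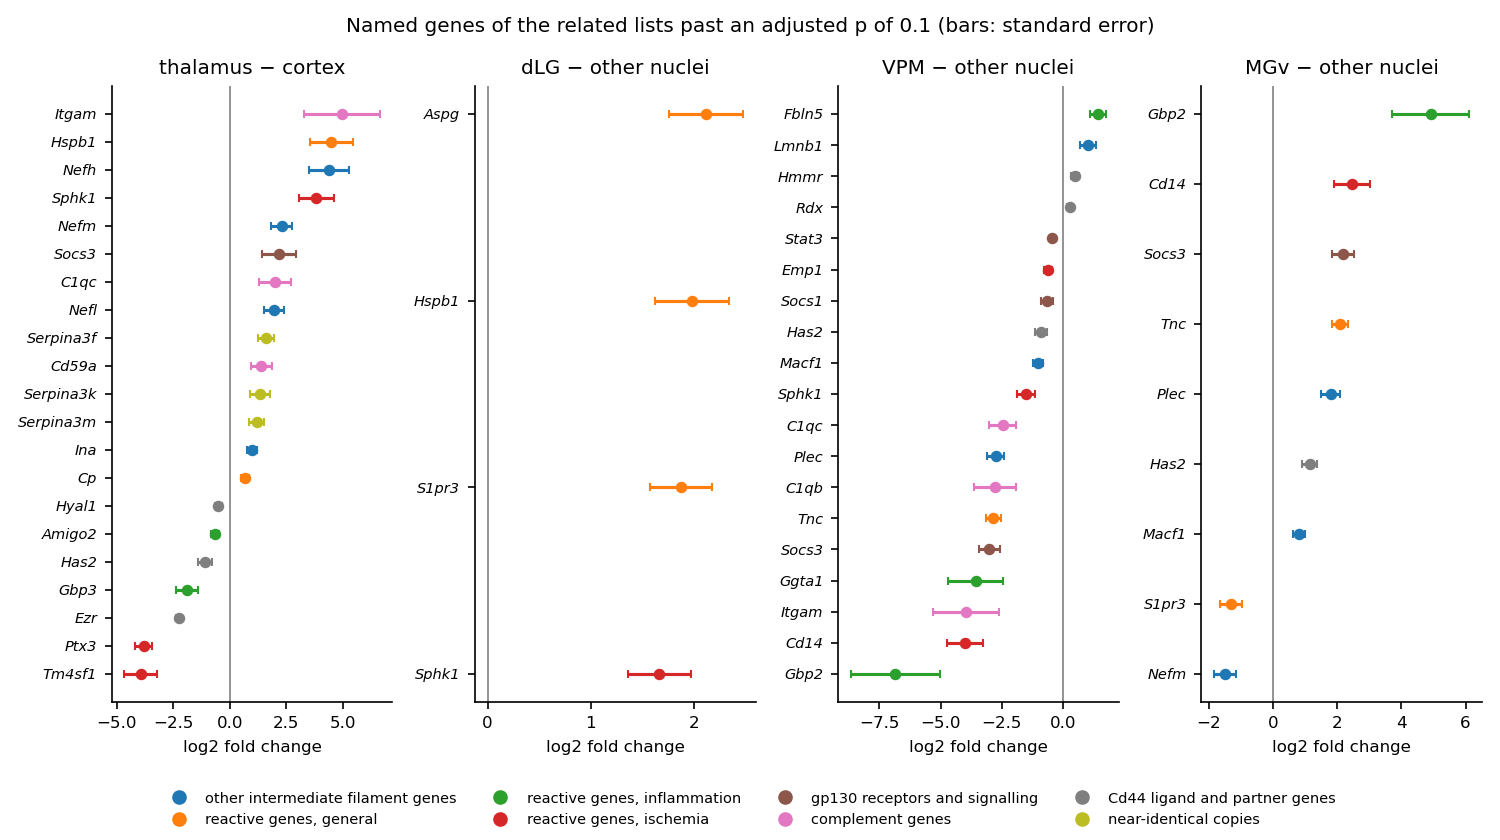
Log2 fold change (horizontal axis) of the named genes of the related lists, the gp130 ligands left out, that passed an adjusted p of 0.1 (vertical axis), in each comparison, coloured by list. Bars are standard errors. *Ptx3* (-3.82) and *Ezr* (-2.26) are lower in the thalamus, and *Plec* (-2.76), *Tnc* (-2.86), and *Socs3* (-3.02) are lower in the VPM. The last 3 are higher in the MGv than the mean of the dLG and VPM on the log2 scale. Their MGv ranges overlap those of the dLG.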

How the data were processed

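RNA of sorted astrocytes was amplified with the SMARTer v4 kit and sequenced as single-end reads. The authors trimmed adapters, aligned the reads to GRCm38 with STAR 2.7.0d, counted them on Ensembl genes with Subread 1.6.4 (featureCounts), and deposited raw counts per gene, without normalization. The strand setting is not given in the sources used here. Of the 26556 identifiers, 26548 were matched to symbols in GENCODE M21. The smallest total of an identifier over the libraries was 10 counts. The members and lists were chosen with earlier results of these data known.

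Levels are CPM with TMM factors of edgeR 4.0.16 (R 4.3.3). Genes with low counts were removed with filterByExpr, and thalamus and cortex (13 and 4 libraries, 17856 genes) and each nucleus and the other 2 (17319 genes) were compared with the robust quasi-likelihood test at an adjusted p under 0.1. SEs are the size of the log2FC over the square root of *F*. The fits were tested on simulated data. The lists hold other intermediate filament genes and linkers, genes known from reactive astrocytes, gp130 ligands, gp130 receptors and signalling genes, complement genes, ligands and partners of *Cd44*, and near-identical copies, beside markers of cell types and states. Of each list, up to 4 genes of lowest p between regions and up to 3 per nucleus were named, and up to 5 genes most like *Gfap* and 2 most like each other member. *C1qa* and the remarks on *Il6st*, *Osm*, *Gbp2* counts, and *Lcn2* were added after values were seen. Alternatives were DESeq2 1.42.0, its size factors, other filters, a threshold of 0.05, a replicate block, the number series, a fit of 4 groups, and each library left out. Promoters are from RefSeq. A gene of the gp130 ligand list is not reported here.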

Additional observations from a re-analysis of the deposited data

Results flagged for a closer look

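In 32 groups of 4 or 5 libraries (8 genes in 4 groups), the library farthest from the others was compared with the range of its group, and 2 stood apart. Chance sets apart about 1 in 20 such groups. *Vim* in VPM replicate b was at 137.0 CPM, beside 89.4 to 97.5 CPM in the other 3. The same library was also the highest VPM library for *Gfap* (19.3 CPM), *Socs3* (39.6 CPM), *Tnc* (55.8 CPM), and the immediate early sum (2992 CPM). It had the highest progenitor and cycling sum of the VPM too (9706 CPM, beside 5759 to 6032 CPM). Its oligodendrocyte lineage sum (6961 CPM) and neuronal sum (422 CPM) were the lowest of the VPM. The part of these in its *Vim* was not tested. *C4b* in MGv replicate c was at 51.6 CPM, beside 1.35 to 9.48 CPM in the other 3, and the same library was the highest of all 17 for *Gfap*, *Vim*, and *Serpina3n* (5525, 536.4, and 423.7 CPM).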

How the results depend on the processing

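The direction of the 54 named list results held under their 1218 alternative values, of which 1009 were past the threshold, and 19 results passed under every alternative run for them. The number of members called between regions was 2, and 5 with 4 groups, 4 with the number series as a covariate, and 1 within series B. In the dLG it went from 0 to 2 with DESeq2 and to 1 with at least 10 counts in every library. List genes called between regions went from 22 to 14 with at least 10 counts in every library, 7 within series A, and 6 within series B. In the dLG they went from 4 to 9 with DESeq2, in the VPM from 26 to 13 at an adjusted p under 0.05, and in the MGv from 9 to 17 with DESeq2 and to 5 with the series covariate. With each library left out in turn, members called ranged from 2 to 4 between regions, 0 to 2 in the dLG, 3 to 4 in the VPM, and 0 to 4 in the MGv, and list genes from 14 to 22, 4 to 7, 9 to 31, and 4 to 11. The cause of these changes was not tested, apart from the fewer genes or libraries that some alternatives hold. All MGv libraries are of series A, and dLG c is in neither series.

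Replicate letters are shared between groups, but of 24 same-letter pairs only 6 had a correlation of deviations over 0.1 (range -0.173 to 0.267), so the letters were not taken as pairs. With a replicate block, members called were 2 between regions and 0, 4, and 3 in the dLG, VPM, and MGv, and list genes 19 and 3, 22, and 9. Low counts limit *C4b* in the VPM and *Osmr* in the dLG, where dLG c also had the fewest genes detected (17749).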
